A study of Mus musculus with 6 samples.

Results

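The genes of voltage-gated sodium, potassium and calcium channels, with the auxiliary subunits and the potassium channel relatives that carry the same gene names, were examined in NSC-34 cells after knockdown of Qk. Members were taken by gene symbol: Scn followed by a number and a or b, Kcn followed by letters and a number, and Cacn followed by a, b or g and a number, including Cacna2d. This gave 131 of the 23038 genes listed. NSC-34 is a mouse motor neuron-like line, a hybrid of neuroblastoma cells and embryonic spinal cord motor neurons, and all libraries came from this line, grown in serum-containing medium. The line was transfected with an siRNA that served as negative control (3 libraries, siNC) or with siRNA directed at Qk transcripts (3 libraries, siQk), and cells were collected 72 h later. Qk encodes the Quaking RNA-binding proteins. In all, 3 siRNAs against Qk were used, and the labels do not say which library received which. According to the study the libraries came from independent cultures. Libraries are named here by group and by the replicate number of their title.

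Voltage-gated channels open and close with the membrane potential. In a neuron, sodium channels carry the rising phase of the action potential, potassium channels repolarize the membrane and set its resting level and firing rate, and calcium channels turn the potential into calcium entry that triggers transmitter release. The pore is formed by a large alpha subunit, and smaller auxiliary subunits govern its trafficking and gating. The symbol rule is wider than the name: the inward rectifiers (Kcnj), the tandem pore-domain or K2P channels (Kcnk) and the small-conductance calcium-activated channels (Kcnn) do not open with voltage, and most Cacng genes encode transmembrane AMPA receptor regulatory proteins (TARPs) rather than calcium channel subunits. The alpha subunit gene Scn2a, listed under the older symbol Scn2a1, is not matched by the rule.

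Promoter windows from RefSeq (GRCm38.p6, 250 bases before and 50 after the most upstream annotated start) were matched for 96 of the 131 members, and CG dinucleotides, which read the same on both strands, were counted in them. The windows printed are the 150 bases before the start, 5′ to 3′ on the gene's strand, with each CG in capitals. The first 3 belong to the most abundant members and the last 3 to pore-forming voltage-gated potassium channel genes with no count in any library. They were chosen by level, passing over windows that touch an annotated exon, to show how far CG content varied at both ends of the expression range. The windows of Kcnh2, Cacnb3 and Kcna2 lie in introns of longer GENCODE gene models, and the others lie upstream of the gene.
Cacng7 (chr7:3332675-3332824, plus strand): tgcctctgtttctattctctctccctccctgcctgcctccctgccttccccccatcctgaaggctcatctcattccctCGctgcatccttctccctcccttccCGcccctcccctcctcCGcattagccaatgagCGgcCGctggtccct
Kcnh2 (chr5:24329592-24329741, minus strand): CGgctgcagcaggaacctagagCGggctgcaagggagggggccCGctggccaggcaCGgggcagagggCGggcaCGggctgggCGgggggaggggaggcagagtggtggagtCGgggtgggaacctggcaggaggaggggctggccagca
Cacnb3 (chr15:98632178-98632327, plus strand): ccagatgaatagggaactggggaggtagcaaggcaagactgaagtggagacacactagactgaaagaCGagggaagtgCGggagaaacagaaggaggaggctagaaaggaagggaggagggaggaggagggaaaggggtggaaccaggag
Kcna2 (chr3:107101417-107101566, plus strand): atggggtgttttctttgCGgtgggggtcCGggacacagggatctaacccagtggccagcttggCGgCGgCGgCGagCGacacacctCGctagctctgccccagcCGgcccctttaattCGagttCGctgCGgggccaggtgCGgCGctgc
Kcna3 (chr3:107036012-107036161, plus strand): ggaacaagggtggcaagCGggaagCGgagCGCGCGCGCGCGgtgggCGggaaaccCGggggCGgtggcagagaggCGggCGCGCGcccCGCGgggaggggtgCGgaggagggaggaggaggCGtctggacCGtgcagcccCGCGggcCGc
Kcna5 (chr6:126535556-126535705, minus strand): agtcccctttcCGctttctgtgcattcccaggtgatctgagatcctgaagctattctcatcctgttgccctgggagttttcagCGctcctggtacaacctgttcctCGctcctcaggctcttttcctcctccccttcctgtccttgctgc

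Over its whole 300-base window Cacng7 held 15 CG, Kcnh2 19 and Cacnb3 7, against 31 for Kcna2, 37 for Kcna3 and 4 for Kcna5. Among these 6 whole windows, those of genes with no count included both the most and the fewest CG. In the 150 bases printed the fewest CG, 2, were those of Cacnb3. The expression filter was a mean above 0 in log2 CPM, counts scaled by library totals adjusted with TMM factors. Across the members, the median was 17 CG in the 37 windows of genes that passed the filter. It was 9 in the 37 windows of genes with some count that did not pass it, and 9 in the 22 windows of genes with no count. For all genes the medians were 21, 6 and 2 CG in 10100, 3782 and 3733 windows. At least 1 CG was present in 95.3% of the 17615 windows of all genes and in 99.0% of the members' windows. At the median, channel genes with no count held more CG than all genes with no count, a difference given as a description without a test (plot of CG content by level class).

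**Figure D1:**
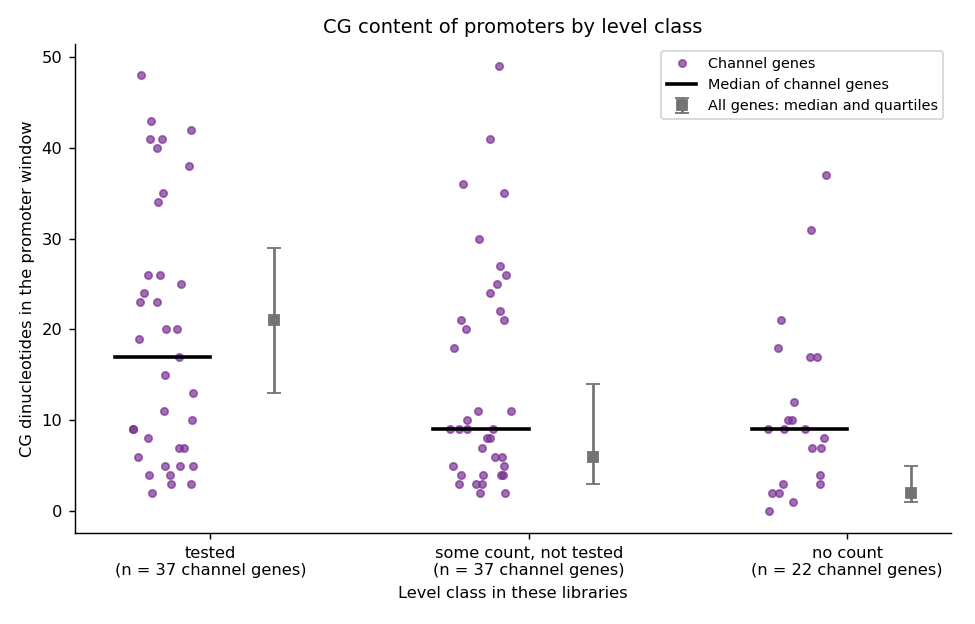
CG dinucleotides per 300-base promoter window (vertical axis) of channel genes by level class, each point a gene, with the median of the channel genes as a black line and the median and quartiles of all genes in grey. The median of channel genes was 17 CG in tested genes and 9 in genes with no count, while that of all genes was 21 and 2.

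The Quaking proteins bind RNA at sites built around ACUAAY. The letters ACTAAC and ACTAAT were searched on the sense strand of the longest GENCODE release 21 transcript of each gene. They differ only in their last base and so cannot occupy the same position. Of the 56 members that passed the expression filter, 30 (53.6%) held at least 1 match, compared with 5865 of 12182 transcripts of all tested genes (48.1%). The members' transcripts were longer, with a median of 3997.5 bases against 3432, and held 0.151 matches per kb against 0.229. The 30-base windows printed come from the tested member with the smallest p and from the alpha subunits Scn8a and Scn9a, which held the most matches, 4 and 6. Capitals mark the match, and a match describes the letters only.
Kcnh4 (5′ untranslated region, first motif base at transcript position 183): gcagagcttagaACTAACaggttcagagca
Scn8a (5′ untranslated region, first motif base at transcript position 192): ggactcagcataACTAACgaagctgctgca
Scn8a (3′ untranslated region, first motif base at transcript position 6715): tcagcctatgtcACTAATcgtctgtttctt
Scn8a (3′ untranslated region, first motif base at transcript position 8446): taaatacaaattACTAACttattaaatagg
Scn9a (coding region, first motif base at transcript position 1327): cagtgtgttcgcACTAATtggactacaact
Scn9a (3′ untranslated region, first motif base at transcript position 8307): agagagagagtgACTAATagaaagagggag
Scn9a (3′ untranslated region, first motif base at transcript position 9093): attagtgtttggACTAACtctaaaatgtca

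The siRNA target was depleted in every siQk library. Levels are given as RPKM, reads relative to exon length and library total, and always in the order of replicates 1 to 3. Qk had 9.67, 8.18 and 14.9 RPKM in siNC and 1.39, 1.71 and 1.10 RPKM in siQk. The groups did not overlap, and 12.8% of the siNC mean remained (log2 fold change -2.997, adjusted p = 0.0149 by edgeR's quasi-likelihood test). Library totals ran from 43000503 to 53565950 counts. The first principal component (41.2% of variance) set siQk replicate 2 apart from the other libraries and the second (28.9%) set siNC replicate 3 apart. Of 6 motor neuron markers, 2 passed the filter (Isl1 and Slc18a3), while Mnx1 and the cholinergic genes Chat and Slc5a7 did not exceed 0.141 RPKM in any library. All 6 sympathoadrenal markers passed, with summed levels of 313 to 492 RPKM in siNC and 370 to 467 RPKM in siQk, so the channel levels given are those of a line with low levels of defining motor neuron genes. The summed motor neuron markers were 6.85 to 7.39 RPKM in siNC and 9.83 to 12.6 RPKM in siQk, mostly Isl1, and the part of this in the channel levels was not tested. Of 6 general neuron markers 5 passed, with Stmn2 at no more than 0.00796 RPKM. Of the glial lists, 1 of 4 astrocyte and 3 of 6 oligodendrocyte lineage markers passed. None of the 4 microglia, 4 fibroblast and 4 skeletal muscle markers passed the filter.

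Of the 131 channel genes, 56 (42.7%) passed the filter of a mean log2 CPM above 0, compared with 55.0% of all genes, and 32 reached a mean of 1 RPKM in siNC. A further 50 had some count without passing, with at most 0.474 RPKM in any library. The remaining 25 (19.1%, against 21.9% of all genes) had no count in any of the 6 libraries. The lowest count of a tested member in any library was 19. Only 7 members averaged 10 RPKM or more in siNC. In falling order these were Cacng7, Kcnh2, Cacnb3, Cacng3, Kcnab2, Kcnk3 and Cacnb1, so that the most abundant channel transcripts encoded mainly auxiliary or receptor-associated subunits. Neighbours in this order overlapped in their libraries, apart from Cacng7, which lay above all the others in every library.

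**Figure D2:**
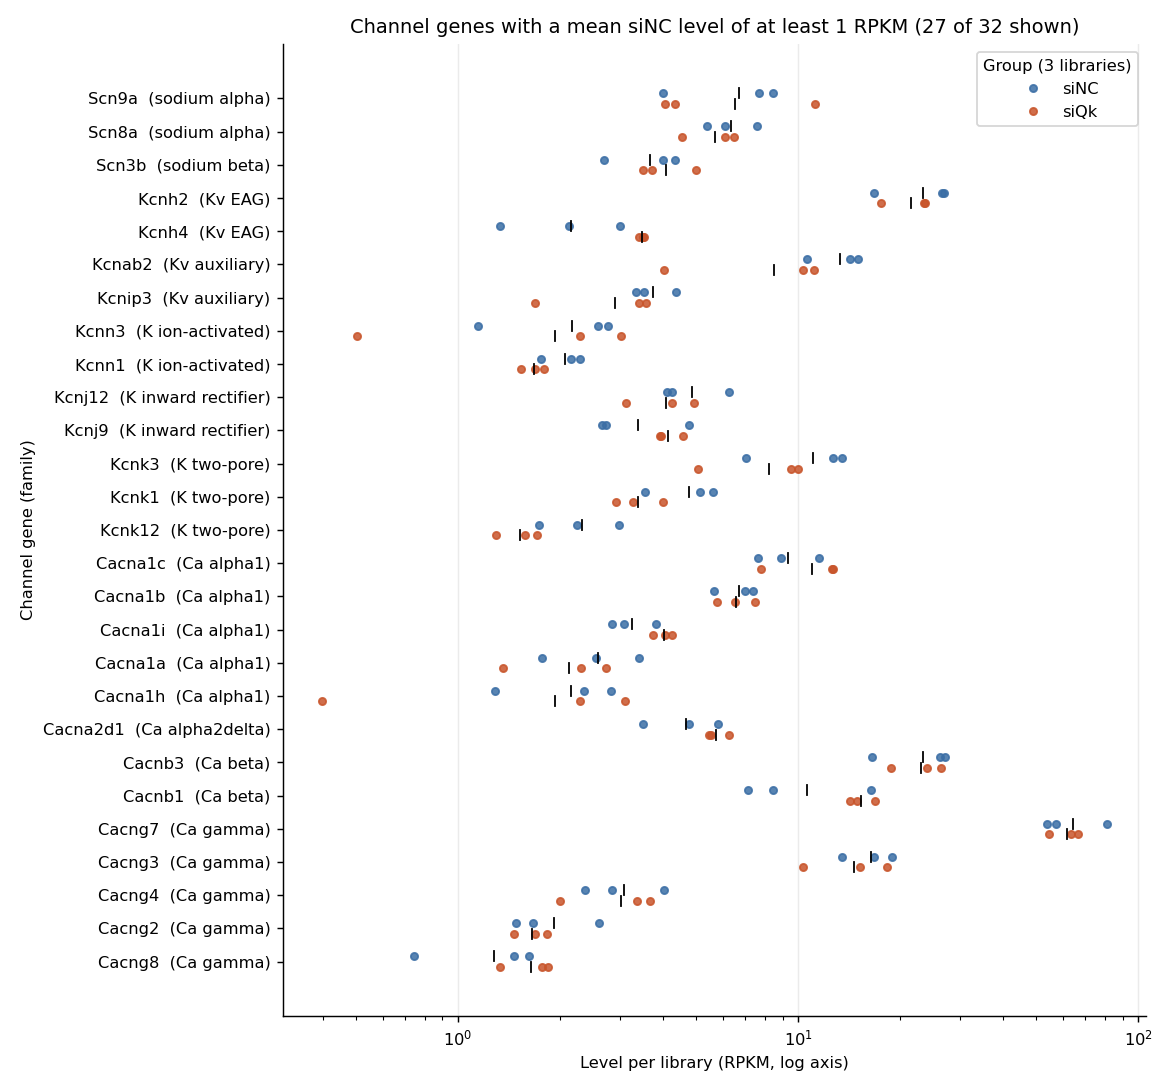
Level in RPKM (log axis) of 27 of the 32 channel genes with a mean siNC level of at least 1 RPKM, ordered by family, with each library as a point (siNC blue, siQk orange) and the group mean as a black tick. Only Kcnh4 and Kcnk12 show groups without overlap among these genes, and Cacng7 lies between 53.9 and 81.1 RPKM, above every other gene.

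After Qk knockdown no channel gene was called changed. The cutoffs were the study's, p under 0.01 and adjusted p under 0.1, applied to all 12665 genes tested. In the fit reported here Qk was the only gene to pass them (0.0079% of all tested). The study names edgeR without the kind of test, and reported further transcripts beside Qk as down-regulated at these cutoffs. With edgeR's quasi-likelihood test, 0 of the 56 channel genes passed and their smallest adjusted p was 0.9996. DESeq2 and edgeR's exact test also called 0. At an unadjusted p under 0.05 there was 1 channel gene, Kcnh4 (1.79%, against 2.89% of all tested genes). Groups did not overlap for 4 channel genes (7.14%, against 8.84%), namely Kcnh4, Kcnk5 and Kcnn2 with higher values in siQk and Kcnk12 with lower values. Kcnk5 and Kcnn2 are named after their values were seen. The fitted value was lower in siQk for 31 members (55.4%, against 49.2% of all tested genes) and higher for 25, with a median log2 fold change of -0.06 against 0.003 for all tested genes. These shares were close to the background. A fitted change of at least 0.5 on the log2 scale in either direction was found for 7 members (12.5%, against 6.48% of all tested genes). The members also sat at lower levels, with a median of the mean log2 CPM of 3.17 against 5.13, and had larger errors, with a median SE of 0.28 against 0.21. The part of level and error in the share of 12.5% was not tested. In bulk RNA, fewer cells carrying a transcript and less transcript per cell cannot be told apart.

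**Figure D3:**
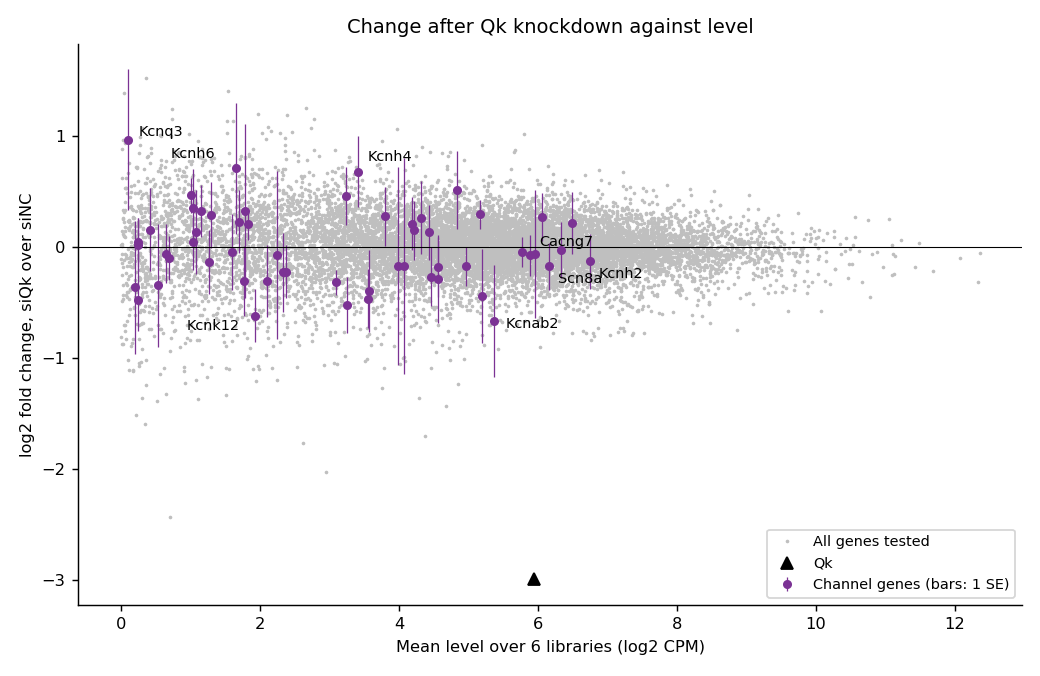
Fitted log2 fold change of siQk over siNC (vertical axis) against the mean level over 6 libraries in log2 CPM (horizontal axis) for all 12665 tested genes in grey, the 56 tested channel genes in purple with bars of 1 SE, and Qk as a triangle. Channel genes lie between -0.67 and 0.96, within the cloud of other genes, while Qk lies at -2.997.

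The sodium channel alpha subunits form the pore that carries the inward current of the action potential. Of 9 alpha subunit genes, 6 passed the filter, 3 with higher and 3 with lower fitted values. Scn9a, an alpha subunit known for sensory and sympathetic neurons (chromosome 2, 66480080 to 66634962, minus strand, GRCm38 as for every position given), had the highest siNC mean among them. Its values were 3.996, 8.46 and 7.68 RPKM in siNC and 4.36, 11.2 and 4.05 RPKM in siQk. The groups overlapped throughout, and siQk replicate 2 alone was the highest of all 6. The fitted log2 fold change, here and elsewhere siQk over siNC with an SE from the spread between libraries, was -0.07 ± 0.58 (SE). Without siQk replicate 2 it was -0.70, and without siNC replicate 3 it turned to 0.07. Exons of Scn9a overlap those of the antisense gene Gm13629, and the kit kept no strand, so their reads cannot be told apart. Such an overlap with a gene on the opposite strand was found for 19 of the 56 tested members, and with a gene on the same strand for 3.

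Scn8a, the principal alpha subunit of the mature axon initial segment and nodes of Ranvier (chromosome 15, 100869858 to 101045938, plus strand), had 5.39, 7.56 and 6.11 RPKM in siNC and 6.48, 4.54 and 6.10 RPKM in siQk. The ranges overlapped, with the lowest value in siQk replicate 2. Its mean was 6.35 ± 1.10 RPKM in siNC libraries against 5.71 ± 1.03 RPKM in siQk libraries (SD, n = 3 each), a log2 fold change of -0.18 ± 0.21 (SE). Scn3a, an embryonic form, averaged 0.610 RPKM in siNC and 0.847 RPKM in siQk. Scn4a of skeletal muscle and Scn1a of central neurons passed the filter below 0.5 RPKM. The sensory neuron genes Scn10a and Scn11a did not pass, at up to 0.113 RPKM. The family summed to 16.3 ± 3.58 RPKM in siNC libraries against 16.04 ± 2.33 RPKM in siQk libraries (SD, n = 3 each), of which Scn9a supplied 28.4% to 60.0% depending on the library.

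Sodium channel beta subunits are cell adhesion proteins that modulate the alpha subunit. Scn3b averaged 3.68 ± 0.882 RPKM in siNC libraries against 4.08 ± 0.824 RPKM in siQk libraries (SD, n = 3 each). Scn2b and Scn4b, which in adult neurons are linked to the alpha subunit by a disulfide bond, stayed at or below 0.0602 RPKM.

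The pore-forming voltage-gated potassium channels of the Kcna to Kcnd groups were sparse. Of 17 genes, 4 passed the filter and 8 had no count in any library. Kcna1 (chromosome 6, 126640397 to 126646384, minus strand) and Kcna2 (chromosome 3, 107101146 to 107115005, plus strand) encode the low-threshold channels that flank nodes of Ranvier. Both had 0 counts in all 6 libraries, which allows a level of up to 0.00778 RPKM for Kcna1 and 0.00602 RPKM for Kcna2, the level of 3 counts in the shallowest library, for counting error only. Kcna3, Kcna5, Kcna6, Kcna10, Kcnb2 and Kcnc4 were likewise without a count.

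Kcnc1, a fast delayed rectifier of rapidly firing neurons, averaged 0.496 ± 0.120 RPKM in siNC libraries against 0.406 ± 0.116 RPKM in siQk libraries (SD, n = 3 each), and Kcnd2, an A-type channel, 0.816 and 0.668 RPKM. The 10 modifier genes (Kcnf, Kcng, Kcns and Kcnv), silent alone and active only in company with other pore subunits, all failed the filter. Their summed level was at most 0.338 RPKM in any library, of which Kcng4 supplied 62.1% to 95.1%.

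Among the ether-a-go-go related channels (Kcnh) 4 of 8 passed the filter. Kcnh2, the ERG channel whose slow closing steadies the resting potential (chromosome 5, 24319589 to 24351604, minus strand), had the second highest siNC mean of the members. It had 26.8, 26.5 and 16.7 RPKM in siNC and 23.5, 17.5 and 23.7 RPKM in siQk. The lowest values were in siNC replicate 3 and siQk replicate 2, the same libraries that stood apart on the principal components, and the groups overlapped. The means of 23.3 ± 5.74 and 21.5 ± 3.51 RPKM (SD, n = 3 each) gave a log2 fold change of -0.13 ± 0.25 (SE).

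Kcnh4, an ELK channel of the same family (chromosome 11, 100740376 to 100759942, minus strand), was the tested member with the smallest p. It had 3.00, 2.13 and 1.33 RPKM in siNC and 3.53, 3.49 and 3.42 RPKM in siQk. All siQk libraries lay above all siNC libraries, and the siQk values were tightly grouped while the siNC values were spread. By edgeR the log2 fold change was 0.67 ± 0.32 (SE) at an unadjusted p of 0.0390 and an adjusted p of 0.9996. The two-sided exact permutation test gave p = 0.1, the smallest that 3 against 3 can give. Without siNC replicate 3 the log2 fold change was 0.44, and without siNC replicate 1 it was 0.99. Its exons overlap no other annotated gene, and its single motif match lies in the 5′ untranslated region printed earlier.

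Kcnh6, a further ERG channel (chromosome 11, 106008124 to 106034549, plus strand), had 0.710, 1.11 and 0.558 RPKM in siNC and 1.81, 0.562 and 1.55 RPKM in siQk. Of the siQk libraries, replicates 1 and 3 lay above siNC and replicate 2 lay at its lower end. A log2 fold change of 0.71 ± 0.59 (SE) was fitted, which was 1.07 without siQk replicate 2 and 0.40 without siQk replicate 1.

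The M-current channels (Kcnq) hold the membrane below threshold between action potentials. Kcnq3, a subunit of the neuronal M-channel (chromosome 15, 65986387 to 66286642, minus strand), had 0.183, 0.227 and 0.325 RPKM in siNC and 0.315, 0.918 and 0.226 RPKM in siQk. Only siQk replicate 2 stood above the siNC range. The fitted log2 fold change of 0.96 ± 0.64 (SE) was the largest of the 56 members tested. It rested on that library, and without it Kcnq3 no longer passed the filter on level. Kcnq5 passed at 0.768 and 0.668 RPKM, while Kcnq1 did not pass.

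**Figure D4:**
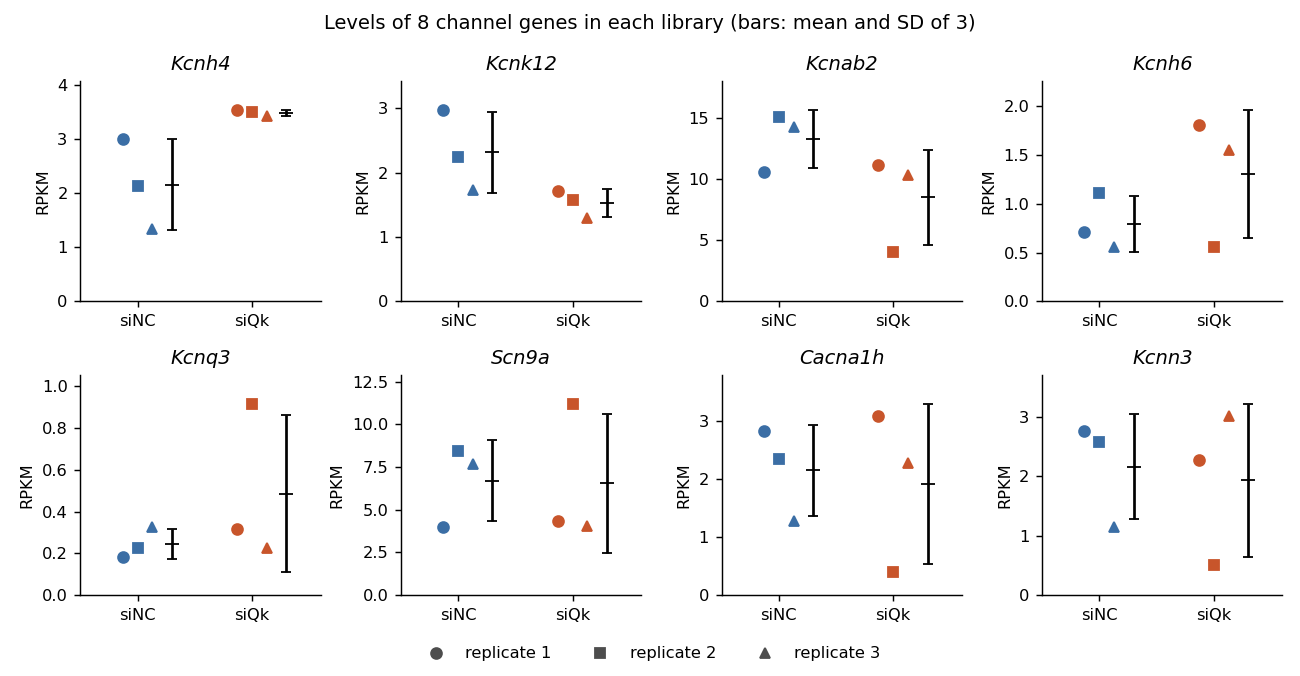
Level in RPKM (vertical axis, from 0) of 8 channel genes in each library, with marker shape for the replicate number and bars for the mean and SD of 3 libraries per group. Kcnh4 and Kcnk12 show groups without overlap, and siQk replicate 2 lies farthest from the other siQk libraries for the other 6 genes.

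The auxiliary subunits of voltage-gated potassium channels comprised cytoplasmic beta subunits (Kcnab), the calcium-sensing partners of A-type channels (Kcnip) and the small membrane proteins of the Kcne group. Of 11 genes, 4 passed the filter. Kcnab2, an oxidoreductase-like beta subunit that binds Kcna pores (chromosome 4, 152390742 to 152477871, minus strand), had 10.6, 15.02 and 14.2 RPKM in siNC and 11.1, 4.02 and 10.4 RPKM in siQk. The siQk libraries lay lower, most of all replicate 2, but replicate 1 exceeded the lowest siNC value. The means were 13.3 ± 2.36 and 8.50 ± 3.89 RPKM (SD, n = 3 each). The log2 fold change of -0.67 ± 0.50 (SE) was the most negative of the 56 members tested, with an adjusted p of 0.9996 by edgeR. It was -0.33 without siQk replicate 2 and -0.91 without siQk replicate 1. Exons of Kcnab2 overlap those of Gm16334 on the same strand. Kcnip3, a calcium-binding protein that also acts in the nucleus, averaged 3.75 ± 0.557 RPKM in siNC libraries against 2.89 ± 1.04 RPKM in siQk libraries (SD, n = 3 each). The family summed to 16.8, 20.7 and 19.3 RPKM in siNC and 16.5, 7.67 and 15.5 RPKM in siQk, so that the groups stood apart narrowly, and Kcnab2 supplied 52.4% to 73.8% of each sum. No Kcne gene passed the filter. Kcnab2 was thus abundant in a line where no Kcna pore gene exceeded 0.399 RPKM.

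Channels mostly gated by calcium or sodium, with their beta subunits (Kcnma, Kcnmb, Kcnn, Kcnt and Kcnu), had 7 of 12 members tested. Kcnn3, a small-conductance calcium-activated channel of the afterhyperpolarization (chromosome 3, 89520164 to 89675132, plus strand), had 2.77, 2.58 and 1.14 RPKM in siNC and 2.28, 0.504 and 3.02 RPKM in siQk. Replicate 2 of siQk was the lowest and replicate 3 of siQk the highest of all 6. A log2 fold change of -0.17 ± 0.89 (SE) was fitted, which turned to 0.28 when siQk replicate 2 was left out. Kcnn1 averaged 2.06 ± 0.274 and 1.67 ± 0.130 RPKM (SD, n = 3 each). Kcnn2, whose groups did not overlap in RPKM, ran from 0.484 to 0.676 RPKM in siNC and from 0.678 to 0.743 RPKM in siQk. At the closest the margin was only 0.6765 RPKM in siNC against 0.6775 RPKM in siQk. Kcnma1, the pore of the large-conductance BK channel (chromosome 14, 23289431 to 24014491, minus strand), did not pass the filter. It had 2 to 17 counts per library, 0.0257 ± 0.0174 RPKM in siNC libraries against 0.0132 ± 0.0106 RPKM in siQk libraries (SD, n = 3 each). Its neuronal beta subunit gene Kcnmb4 nevertheless passed, at 0.801 and 1.02 RPKM.

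Inward rectifiers (Kcnj) pass potassium most easily into the cell and hold the resting potential. Of 15 genes, 4 passed the filter and 5 had no count, among them Kcnj2 and the G protein-gated subunit gene Kcnj3. Kcnj12, a strong rectifier (chromosome 11, 61022564 to 61071131, plus strand), had 4.27, 6.27 and 4.11 RPKM in siNC and 4.94, 3.11 and 4.25 RPKM in siQk. The groups overlapped, with a log2 fold change of -0.27 ± 0.27 (SE). Kcnj9, a G protein-gated subunit, averaged 3.39 ± 1.22 and 4.16 ± 0.373 RPKM (SD, n = 3 each). Kcnj11, the pore of the ATP-sensitive channel, passed the filter at 0.380 and 0.3002 RPKM.

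The K2P channels carry the background potassium leak, and 5 of 14 passed the filter. Kcnk3, the acid-sensitive TASK channel found in motor neurons (chromosome 5, 30588170 to 30625271, plus strand), had 12.7, 13.4 and 7.01 RPKM in siNC and 10.0, 5.06 and 9.53 RPKM in siQk. Replicate 3 of siNC fell within the siQk range, and siQk replicate 2 was the lowest. The means were 11.0 ± 3.52 and 8.20 ± 2.72 RPKM (SD, n = 3 each), a log2 fold change of -0.45 ± 0.42 (SE). The fold change was -0.19 without siQk replicate 2 and -0.67 without siNC replicate 3. Its exons overlap those of the antisense gene Gm9899.

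Kcnk12, a K2P subunit that carries little or no current by itself (chromosome 17, 87745801 to 87797994, minus strand), had 2.98, 2.24 and 1.73 RPKM in siNC and 1.71, 1.58 and 1.29 RPKM in siQk. Every siQk library lay below every siNC library, by a margin of 1.73 against 1.71 RPKM at the closest. By edgeR the log2 fold change was -0.62 ± 0.24 (SE) at an unadjusted p of 0.0610 and an adjusted p of 0.9996, and the two-sided exact permutation test gave p = 0.1. Kcnk1, a weakly conducting relative, averaged 4.77 ± 1.08 and 3.39 ± 0.555 RPKM (SD, n = 3 each). Kcnk5, a pH-sensitive channel, lay higher in siQk without overlap, from 0.473 to 0.498 RPKM in siNC and from 0.561 to 0.821 RPKM in siQk, with a log2 fold change of 0.46 ± 0.16 (SE) and an adjusted p of 0.9996 by edgeR. The family summed to 19.4 ± 3.40 RPKM in siNC libraries against 14.7 ± 2.93 RPKM in siQk libraries (SD, n = 3 each), and these ranges overlapped.

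Of the calcium channel alpha1 subunits, which form the pore, 6 of 10 passed the filter, 3 with higher and 3 with lower fitted values. Cacna1c, the L-type channel (chromosome 6, 118587240 to 119196418, minus strand), led with 8.93, 11.5 and 7.64 RPKM in siNC and 12.6, 7.77 and 12.5 RPKM in siQk. Of the siQk libraries, replicates 1 and 3 lay above siNC and replicate 2 lay at its lower end. The log2 fold change was 0.21 ± 0.28 (SE). Cacna1d, the other neuronal L-type gene, was at or below 0.00402 RPKM in every library.

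The presynaptic channels trigger transmitter release at the motor nerve terminal. Cacna1b, the N-type channel (chromosome 2, 24603887 to 24763152, minus strand), had 6.999, 7.39 and 5.67 RPKM in siNC and 7.45, 6.50 and 5.76 RPKM in siQk, a narrow spread, with a log2 fold change of -0.05 ± 0.14 (SE). Cacna1a, the P/Q-type channel of the adult neuromuscular junction (chromosome 8, 84388440 to 84640246, plus strand), had 2.54, 3.41 and 1.77 RPKM in siNC and 2.72, 1.36 and 2.30 RPKM in siQk. It had a fitted log2 fold change of -0.29 ± 0.39 (SE). This was -0.05 without siQk replicate 2 and -0.51 without siQk replicate 1. Both genes overlapped between groups, and Cacna1b exceeded Cacna1a in every library on the RPKM scale, which is corrected for exon length. Cacna1a overlaps exons of the antisense gene Gm16183.

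The T-type channels open near the resting potential. Cacna1h (chromosome 17, 25374285 to 25433783, minus strand) had 2.83, 2.34 and 1.29 RPKM in siNC and 3.09, 0.399 and 2.29 RPKM in siQk. Replicate 2 of siQk was far below the rest, and replicate 1 of siQk was the highest. A log2 fold change of -0.18 ± 0.97 (SE) was fitted, with the largest SE among the tested members, and it turned to 0.30 when siQk replicate 2 was left out. Cacna1i averaged 3.24 ± 0.513 and 4.03 ± 0.259 RPKM (SD, n = 3 each), and Cacna1g 0.369 and 0.465 RPKM. Cacna1h overlaps exons of Tpsg1 on the opposite strand.

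The auxiliary calcium channel subunits covered a wide range of levels, with 1 of 4 alpha2delta genes and 2 of 4 beta genes at a siNC mean of at least 1 RPKM. Cacna2d1, the alpha2delta subunit that brings channels to the surface and binds gabapentin (chromosome 5, 15934691 to 16374511, plus strand), had 3.50, 5.82 and 4.77 RPKM in siNC and 6.26, 5.53 and 5.46 RPKM in siQk. The siQk values were tighter and the highest siNC value lay among them, with a log2 fold change of 0.27 ± 0.22 (SE). Cacnb3, a cytoplasmic beta subunit (chromosome 15, 98630840 to 98644529, plus strand), had 26.2, 27.0 and 16.5 RPKM in siNC and 23.9, 18.8 and 26.4 RPKM in siQk. Its means were 23.2 ± 5.86 and 23.0 ± 3.86 RPKM (SD, n = 3 each), a log2 fold change of -0.03 ± 0.25 (SE). Cacnb1, which skeletal muscle and neurons use, ran from 7.10 to 16.4 RPKM in siNC and from 14.2 to 16.8 RPKM in siQk. Cacnb1 had a log2 fold change of 0.51 ± 0.35 (SE), which was 0.93 without siNC replicate 2, the siNC library that lay in the siQk range. Exons of Cacnb1 overlap those of the antisense gene Gm11629. The other genes of both groups were low. Cacna2d2 averaged 0.872 RPKM in siNC and 0.838 RPKM in siQk, and Cacnb4 0.351 and 0.417 RPKM. Cacna2d3 and Cacna2d4 did not pass the filter, at up to 0.138 and 0.109 RPKM, and Cacnb2 had no count in siNC and 1 or 2 in each siQk library.

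Most Cacng genes encode proteins known chiefly for carrying AMPA receptors to the synapse. Cacng7 (chromosome 7, 3332955 to 3368221, plus strand) was the most abundant member of all, with 57.4, 81.1 and 53.9 RPKM in siNC and 63.4, 54.8 and 66.7 RPKM in siQk. The groups overlapped and the highest value was in siNC replicate 2. Its means were 64.1 ± 14.8 and 61.6 ± 6.12 RPKM (SD, n = 3 each), a log2 fold change of -0.08 ± 0.18 (SE), and it supplied 71.2% to 77.5% of the family's summed level in every library. Cacng3 averaged 16.4 ± 2.72 and 14.6 ± 3.96 RPKM (SD, n = 3 each). Cacng2, the founding TARP, Cacng4 and Cacng8 averaged 1.91, 3.08 and 1.28 RPKM in siNC. Cacng1 and Cacng6, which belong with the muscle calcium channel, stayed at or below 0.0554 RPKM.

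The libraries of a group differed from each other across many members. Replicate 2 of siQk was the lowest of the 6 libraries for 20 of the 56 tested members and the highest for 4. Replicate 1 of siQk was the highest for 21, siNC replicate 2 for 18, and siNC replicate 3 was the lowest for 16. The median deviation of the members from their siNC mean, on the log2(RPKM + 0.1) scale, was -0.26 for siNC replicate 3 and -0.23 for siQk replicate 2, compared with 0.18 for siNC replicate 2 and 0.13 for siQk replicate 1. On this scale, which uses library totals rather than the scaling of the fit, the lowest and the highest of these medians both lay in siNC. Among all tested genes siQk replicate 2 was extreme for 50.6% and siQk replicate 1 for 17.4%, whereas among the members these shares were 42.9% and 41.1%. Without siQk replicate 2 the median log2 fold change of the members was 0.04 rather than -0.06, and 2 of them, Kcnh6 and Scn9a, reached an unadjusted p under 0.05 (3.64%, against 2.72% of all genes in that fit). Family sums overlapped between groups for each of the 14 families except the potassium auxiliary subunits (plot of summed family levels).

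**Figure D5:**
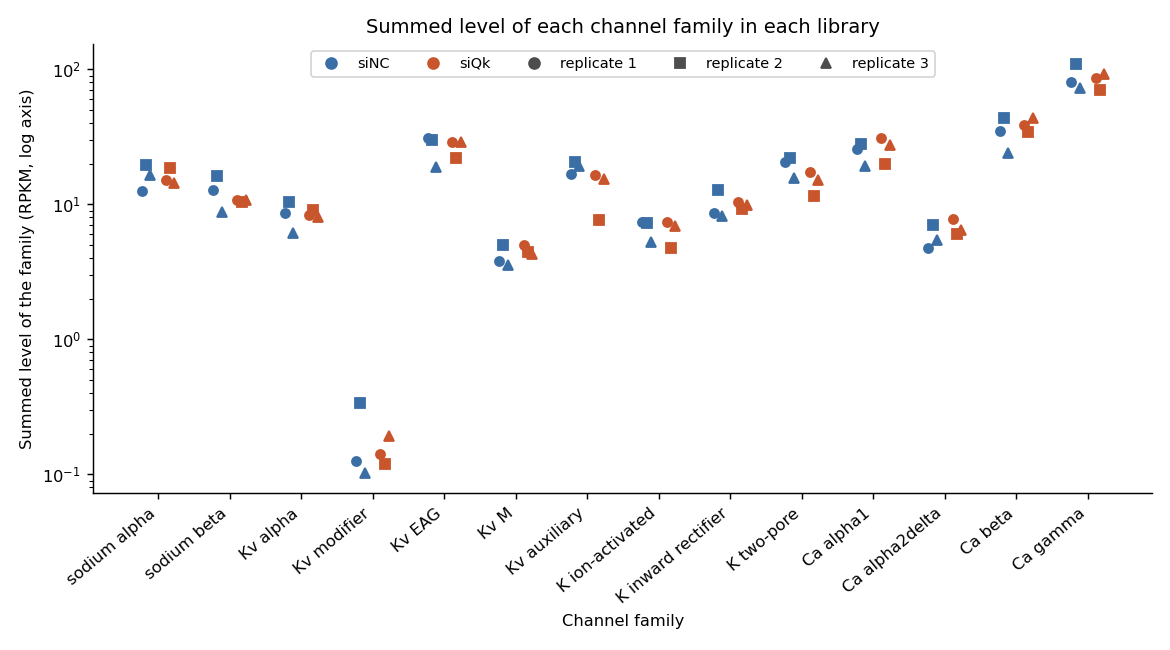
Summed level in RPKM (log axis) of each of the 14 channel families in each library, colour for the group and marker shape for the replicate number. The summed levels of the calcium channel gamma family lie between 70.7 and 108.8 RPKM, and the potassium channel modifiers never exceed 0.338 RPKM.

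Genes that anchor, modify or work beside these channels were taken from a list of 58 non-members, of which 57 were listed and 44 passed the filter. With edgeR's quasi-likelihood test 0 of the 44 were called and 1 had an unadjusted p under 0.05 (2.27%, against 2.89% of all tested genes). DESeq2 also called 0, with 2 under 0.05 (4.55%, against 3.63%), and edgeR's exact test called 0, with 3 under 0.05 (6.82%, against 3.30%). By edgeR's quasi-likelihood test the number under 0.05 was 4 (9.09%) without siNC replicate 1 or without siNC replicate 2, against 4.26% and 3.25% of all genes, and 2 (4.55%, against 3.08%) without siQk replicate 1. It was 0 without siQk replicate 2 or without siQk replicate 3, against 2.72% and 2.30%, and 3 (6.82%, against 3.53%) with a replicate block. The fitted value was lower in siQk for 25 (56.8%, against 49.2% of all tested genes) and higher for 19, with a median log2 fold change of -0.11 against 0.003. Hcn4, a pacemaker channel opened by hyperpolarization, was the gene with p under 0.05. Its values were 1.99, 2.72 and 1.96 RPKM in siNC and 1.61, 1.13 and 1.49 RPKM in siQk. All siQk libraries lay below all siNC libraries, with a log2 fold change of -0.68 ± 0.21 (SE), an unadjusted p of 0.0233 and an adjusted p of 0.9996 by edgeR. Hcn4 stayed under an unadjusted p of 0.05 in 3 of the 6 fits that leave out a library. Hcn2, the main pacemaker gene of the line, averaged 41.1 ± 8.56 and 41.1 ± 6.02 RPKM (SD, n = 3 each). The sodium leak channel gene Nalcn did not pass the filter.

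The members with and without a Quaking motif match had median log2 fold changes of 0.14 (30 genes) and -0.14 (26 genes), against 0.002 and 0.003 over 5865 and 6317 tested genes of all kinds. Scn8a with 4 matches and Scn9a with 6 had log2 fold changes of -0.18 and -0.07. These medians are a description of the levels of whole genes. Exon inclusion was not analysed here.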

How the data were processed

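Poly-A RNA was made into libraries with an unstranded TruSeq RNA Sample Prep Kit v2 and sequenced as 75-nt read pairs. The authors aligned reads with OLego to the mouse genome (mm10 in the labels) and counted them per gene with Quantas, versions not given in the sources used here. The deposited files hold per gene an expected count, the exon length and an RPKM value, which the authors scaled by exon length and column total and which was rebuilt from the count. Expected counts were rounded. Genes with a mean log2 CPM above 0 after TMM scaling were tested with edgeR 4.0.16 in R 4.3.3 (quasi-likelihood F test), all 6 libraries in 1 fit without covariates, p adjusted by Benjamini-Hochberg over 12665 genes. DESeq2 1.42.0, the edgeR exact test, other scalings and filters, a replicate block and leaving out each library were alternatives. SEs come from the spread of log2 CPM (prior count 2). Scripts were tested on simulated data. Positions are from GENCODE release 21 (GRCm38), all 131 members matched. Precision was limited by 3 libraries per group and, for the weakest tested members (down to 19 counts in a library), by counting error. Genes named were Qk, members at p under 0.05, the 5 largest fitted changes, the top member of each family at 1 RPKM or more, textbook channels of motor neuron firing and release, and partners at p under 0.05, of which some are not reported here. Other names were chosen after their values were seen. Members and lists were chosen with earlier results of these data known.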

Additional observations from a re-analysis of the deposited data

How the results depend on the processing

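The count of 0 called channel genes held under each alternative run. The count of all genes called was 1, and was 19 with DESeq2, 5 with edgeR's exact test and 0 to 1 on leaving out a library (0 without siNC replicate 1). The channel genes at an unadjusted p under 0.05, 1 in the fit reported, numbered 5 of 106 without a filter (4.72%, against 3.27% of all genes) and 4 of 72 with filterByExpr at a minimum count of 10 (5.56%, against 3.01%), where the weakly expressed Kcna4, Kcna7 and Kcnab1 joined Kcnh4. They numbered 2 with DESeq2 (3.57%, against 3.63%) and 1 to 3 on leaving out a library (1.79% to 5.36%, against 2.30% to 4.43%). Kcnh4 was among them under each other scaling and test but in only 1 of the 6 fits that leave out a library, that without siNC replicate 1. The members' median log2 fold change of -0.06 was 0.020 without a filter and ran from -0.13 to 0.041 on leaving out a library, turning positive without siQk replicate 2 or siNC replicate 2 (0.028).

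Deviations of same-numbered libraries from their group means correlated across genes at 0.213, 0.018 and -0.170 for replicates 1 to 3. With 3 libraries per group these values cannot decide whether the numbers pair the samples. With a replicate block, 3 members, Kcnh4, Kcnab2 and Cacnb1, had an unadjusted p under 0.05 (5.36%, against 3.53% of all genes) and 0 were called.

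Of 265 refits of 19 named members, 15 turned the sign of the log2 fold change. Each of these left out a library, and they concerned 6 members: Cacna1b (-0.15 to 0.031), Cacna1h (-0.69 to 0.30), Cacnb3 (-0.21 to 0.10), Cacng7 (-0.16 to 0.10), Kcnn3 (-0.66 to 0.28) and Scn9a (-0.70 to 0.18). The cause was not tested. The 32 members at a mean of 1 RPKM became 44 at 0.5 RPKM and 29 at 2 RPKM.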

Other observations

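Genes with related names that the symbol rule left out were read for their levels and, where they passed the filter, from the same fit. Scn2a1, the alpha subunit gene now called Scn2a and the closest relative of the sodium channel members, had 1.31, 2.35 and 1.75 RPKM in siNC and 1.91, 2.07 and 1.86 RPKM in siQk. The groups overlapped, with a log2 fold change of 0.09 ± 0.24 (SE). Of the epithelial sodium channel genes, which are not gated by voltage, Scnn1a averaged 1.62 ± 0.146 RPKM in siNC libraries against 1.03 ± 0.449 RPKM in siQk libraries (SD, n = 3 each), while Scnn1b and Scnn1g did not pass the filter. Kcnq1ot1, a non-coding RNA transcribed antisense to Kcnq1, had 0.271, 0.325 and 0.360 RPKM in siNC and 0.428, 0.565 and 0.371 RPKM in siQk. Its groups stood apart narrowly, with a log2 fold change of 0.48 ± 0.22 (SE), an unadjusted p of 0.0476 and an adjusted p of 0.9996 by edgeR's quasi-likelihood test. Kcnq1 itself had at most 0.179 RPKM, and without strand the reads of their overlapping exons cannot be told apart.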
